A study of Homo sapiens with 6 samples.

Results

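The kinesin family members of this human expression table were followed in A673 cells with and without the fusion oncogene EWS-FLI1. Members were chosen by gene symbol alone, as the genes named KIF with a number, the KIFC genes, the kinesin light chain genes KLC1 to KLC4, KIFAP3 and KIFBP. This gave 48 members among 62700 rows, of which 14 were grouped as mitotic motors, 17 as transport motors, 6 as accessory proteins and 11 as other members. The symbol rule uses no measured value, but members and role lists were chosen with earlier results of these data known. The comparison was between 3 libraries of A673 cells labelled EWS-FLI1 knockout and 3 libraries of the parental A673 line that carries the fusion. A673 is an established cell line grown from a Ewing sarcoma, a tumour of bone and soft tissue driven by a fused gene that joins part of EWSR1, which encodes an RNA-binding protein, to the DNA-binding end of FLI1, an ETS family factor. Cells of both genotypes were grown in DMEM with fetal bovine serum.

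Kinesins are motor proteins that hydrolyse ATP to walk along microtubules, most of them towards the growing plus end. Mitotic kinesins build the spindle, move and align chromosomes, shorten microtubules at kinetochores and organise the midzone through which the cell divides, and many of their genes are transcribed late in the cell cycle. Transport kinesins carry vesicles, organelles, endosomes and cilium components, often through light chains or adaptors that pick the cargo, and several of them are best known from neurons. A short promoter element called the cell cycle homology region, bound by the DREAM and MuvB complexes, is known to time the transcription of many late cell cycle genes, frequently beside CCAAT boxes.

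The libraries held between 301605666 and 310465330 estimated counts in knockout and between 324069161 and 342624492 in parental cells, so counting error was small for a gene of several CPM (counts scaled to library size) and replicate spread set the precision. Levels are given in CPM after scaling by TMM factors, and differences as log2 fold changes of knockout over parental from edgeR's quasi-likelihood test, with p-values adjusted by Benjamini-Hochberg over the 28485 genes tested. A count of 3, taken as the limit of detection, correspond to between 0.00752 and 0.0117 CPM. The gene counts add reads of the fusion to those of the normal genes, so they do not check its loss: EWSR1 held 241, 252 and 242 CPM in knockout and 300, 288 and 291 CPM in parental libraries, and FLI1 held 53.7, 54.8 and 50.8 CPM in knockout and 39.6, 41.9 and 40.6 CPM in parental libraries. Of 8 Ewing sarcoma markers 8 fell, with summed levels of 277 to 288 CPM in knockout and 1762 to 1811 CPM in parental libraries, and of 10 mesenchymal markers 10 rose. The labels do not say whether the knockout is a clone or a pool, nor whether libraries came from separate cultures, so p-values cover only library-to-library spread, and a difference between clones cannot be told apart from the loss of the fusion. In bulk RNA, fewer cells in mitosis and less RNA per mitotic cell cannot be told apart either.

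Most kinesin genes differed between the genotypes, as did most genes of the table. Of 47 tested members 25 fell, 14 rose and 8 did not pass an adjusted p of 0.05. Over all tested genes 73.8% were called in either direction, 36.3% higher and 37.5% lower, against 83.0% of the members, 29.8% higher and 53.2% lower. The groups did not overlap for 39 of the 47 members, or 83.0%, against 76.7% over all tested genes. The median log2 fold change was -0.28 over the members and -0.056 over all tested genes. KIF2B, a kinesin-13 that shortens microtubules at kinetochores, was the member left out of the test, with 0 counts in all 6 libraries. By role, 9 of 13 tested mitotic motors fell (69.2%) and 2 rose (15.4%), and 7 of 17 transport motors rose (41.2%) and 6 fell (35.3%), shares that for the transport motors are near those of all tested genes. The difference between the roles was not tested. The medians were -0.78 for the mitotic and 0.10 for the transport motors, and they became -1.21 and -0.32 with scaling by total counts alone, a scaling that moved the median of all genes by -0.422.

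**Figure D1:**
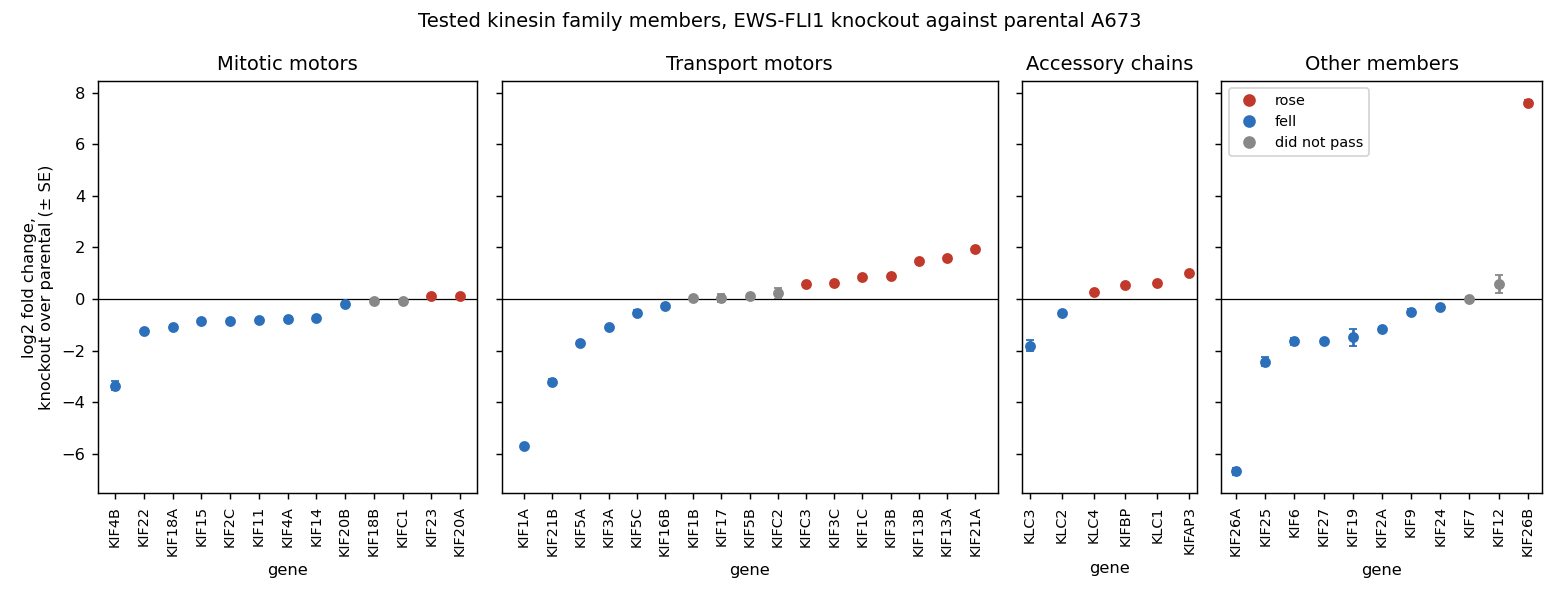
Log2 fold change of knockout over parental with its SE for each of the 47 tested members, by role and ordered within it; the colour gives the call at an edgeR adjusted p of 0.05. Mitotic motors lie between -3.36 and 0.12, with 9 of 13 called lower, whereas transport motors spread from -5.72 to 1.92.

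Of the mitotic motors, 8 of those above 1 CPM fell, and KIF22 and KIF18A fell the most among them. KIF22, a chromokinesin that pushes chromosome arms away from the poles, lies at chr16:29790719-29805385 on the plus strand (GRCh38, GENCODE v29). Its level was 71.5, 76.8 and 75.2 CPM in the knockout libraries and 185, 171 and 172 CPM in the parental libraries. KIF18A, a kinesin-8 that dampens chromosome movements at the metaphase plate, held 54.7, 55.3 and 50.5 CPM in knockout and 105, 118 and 114 CPM in parental libraries. For both genes every knockout library was under the lowest parental library, and the log2 fold changes were -1.24 (edgeR adjusted p = 1.15e-15, SE 0.051) for KIF22 and -1.07 (edgeR adjusted p = 5.74e-14, SE 0.054) for KIF18A.

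KIF11, also known as Eg5, is the kinesin-5 that slides antiparallel microtubules apart to separate the spindle poles, and KIF15 is a kinesin-12 that can help to keep the spindle bipolar. KIF11, at chr10:92593286-92655395 on the plus strand, held 89.9, 87.5 and 79.9 CPM in knockout and 142, 156 and 149 CPM in parental libraries. KIF15 held 18.0, 18.7 and 16.5 CPM in knockout and 30.6, 33.0 and 32.8 CPM in parental libraries. Both pole-separating motors fell without overlap, KIF11 with a log2 fold change of -0.80 (edgeR adjusted p = 9.43e-12, SE 0.054) and KIF15 with one of -0.86 (edgeR adjusted p = 7.16e-12, SE 0.057). KIF2C, or MCAK, is a kinesin-13 that removes tubulin at centromeres and so releases wrongly attached chromosomes. Its level was 82.3, 82.3 and 78.0 CPM in knockout and 147, 146 and 144 CPM in parental libraries. That difference, a log2 fold change of -0.85 (edgeR adjusted p = 2.94e-13, SE 0.047), was many times the spread within either genotype.

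Motors of the midzone and of cell cleavage were divided. KIF4A, a chromokinesin that limits microtubule growth at the midzone together with PRC1, held 63.0, 63.5 and 57.3 CPM in knockout and 105, 106 and 105 CPM in parental libraries. KIF14, which acts with citron kinase in cytokinesis, held 45.4, 43.3 and 40.3 CPM in knockout and 65.9, 75 and 73.1 CPM in parental libraries. Both were lower in every knockout library, with log2 fold changes of -0.78 (edgeR adjusted p = 4.52e-12, SE 0.051) for KIF4A and -0.73 (edgeR adjusted p = 1.96e-10, SE 0.057) for KIF14. KIF20B, a motor of late cytokinesis, held 59.8, 55.1 and 55.9 CPM in knockout and 59.6, 69.4 and 68.2 CPM in parental libraries. Its fall was small, -0.21 (edgeR adjusted p = 0.00322, SE 0.058), and the groups overlapped, since the highest knockout library lay just above the lowest parental one.

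The motors that anchor the central spindle did not follow. KIF23, or MKLP1, forms the centralspindlin complex with RACGAP1, and KIF20A, or MKLP2, brings the chromosomal passenger complex to the midzone. KIF23 averaged 121 ± 3.88 CPM in knockout and 112 ± 3.63 CPM in parental libraries, and KIF20A averaged 115 ± 5.09 CPM in knockout and 106 ± 0.141 CPM in parental libraries (SD, n = 3 each). Both were called higher by a margin that other scalings turn: their log2 fold changes of 0.11 (edgeR adjusted p = 0.0499) and 0.12 (edgeR adjusted p = 0.0282) became -0.32 and -0.30, called lower, with total counts only, and -0.10 and -0.08 with upper quartile factors. With upper quartile factors KIF23 passed as lower (edgeR adjusted p = 0.0456) and KIF20A did not pass. Leaving out knockout replicate 1 or knockout replicate 2 also ended both calls. KIFC1, a minus-end directed kinesin-14 that focuses spindle poles, averaged 109.8 ± 2.07 CPM in knockout and 115 ± 5.14 CPM in parental libraries. KIF18B, which regulates astral microtubules, averaged 28.4 ± 0.838 CPM in knockout and 29.8 ± 1.44 CPM in parental libraries (SD, n = 3 each). Neither passed, both at a log2 fold change of -0.07 (edgeR adjusted p = 0.217 and 0.220), and both were called lower with total counts only (-0.49 for each) and with upper quartile factors (-0.27 and -0.28). KIFC1 was also called lower with a minimum count of 100 (-0.09, edgeR adjusted p = 0.0446), which brings the fallen mitotic motors to 10. That count was 12 with upper quartile factors and 13 with total counts only.

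**Figure D2:**
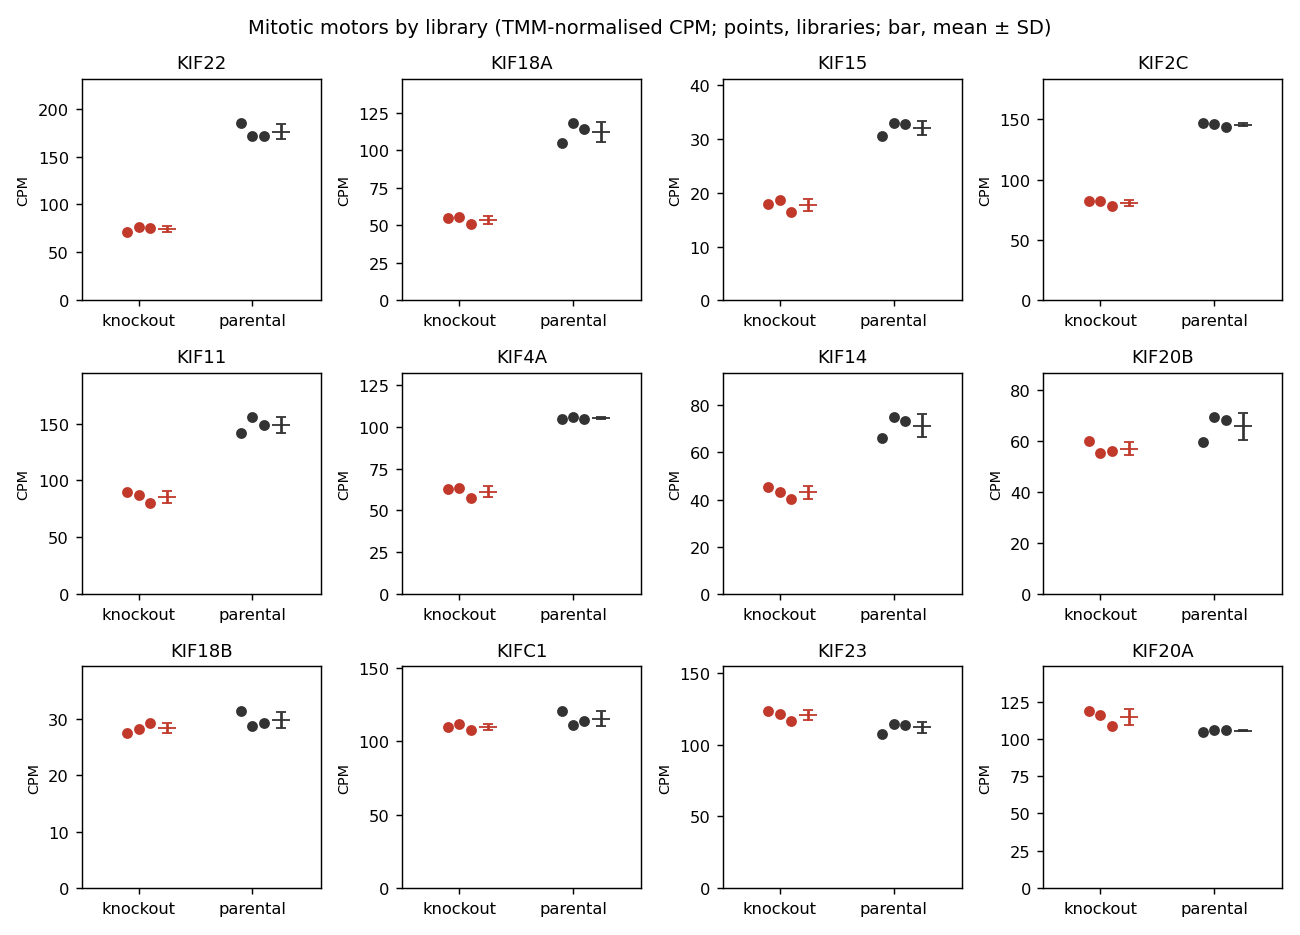
TMM-normalised CPM of 12 mitotic motors in each library, with the mean and SD of 3 libraries beside the points and axes that start at 0. Knockout points lie below all parental points in the panels of KIF22, KIF18A, KIF15, KIF2C, KIF11, KIF4A and KIF14, and close to or among them for KIF20B, KIF18B, KIFC1, KIF23 and KIF20A.

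KIF4B, an intronless copy of KIF4A on chromosome 5, had a log2 fold change of -3.36 (edgeR adjusted p = 4.38e-13, SE 0.19), from 0.0863 ± 0.0069 CPM in knockout and 0.886 ± 0.0334 CPM in parental libraries (SD, n = 3 each). Of its 31-base words 27.7% also occur in KIF4A transcripts, so the estimated counts of both genes depend on how such reads were divided. Without KIF4B, 8 of 12 tested mitotic motors fell and the median was -0.76. CENPE, a kinetochore motor outside the symbol rule, averaged 63.1 ± 2.72 CPM in knockout and 107 ± 8.59 CPM in parental libraries (SD, n = 3 each), a log2 fold change of -0.76 (edgeR adjusted p = 1.64e-10). STARD9, a centrosomal kinesin also outside the rule, rose by 0.64 (edgeR adjusted p = 2.52e-09).

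The promoters of the mitotic members share letters that the symbol rule did not use. RefSeq promoters (GRCh38.p14), from 250 bases before to 50 bases after the start site, were at hand for 38 of 48 members, with 15 promoters for the 14 mitotic genes and 17 promoters for 12 transport genes. The cell cycle homology region was searched on both strands as TTTGAA and as TTTAAA. Over the whole promoter, TTTGAA was in 66.7% of mitotic, 5.88% of transport and 15.2% of all promoters. TTTAAA was in 26.7% of mitotic, 5.88% of transport and 12.2% of all promoters. A narrower window, from 100 bases before to 50 bases after the start site, was added to the planned search. At least 1 of the elements lay in it in 12 of 15 mitotic promoters, or 80.0%, in 0 of 17 transport promoters and in 11.2% of all 35116 promoters. The windows that follow show the element, in capitals, with its neighbouring bases for 9 of these genes, each as 30 bases in the direction of the match.
KIF11: tcggcgcctcaaTTTGAAaaagagacagag
KIF15: gatggccgcaaaTTTGAAtttggcgcttgg
KIF18A: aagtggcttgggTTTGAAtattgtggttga
KIF2C: ttgcgcgcgggaTTTAAActgcggcggttt
KIF4A: ctccgggacggaTTTGAAacttggcggtta
KIF4B: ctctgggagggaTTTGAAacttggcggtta
KIFC1: acacccgccactTTTGAAttccaacggcca
KIF23: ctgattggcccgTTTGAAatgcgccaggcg
KIF20A: cgcagcgcgtaaTTTAAAatattgtatctg

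These windows lie at chr10:92593090-92593119 for KIF11, chr3:44761747-44761776 for KIF15, chr11:28108149-28108178 for KIF18A and chr6:33391815-33391844 for KIFC1, all read on the minus strand. Those of KIF2C at chr1:44739822-44739851, KIF4A at chrX:70290058-70290087, KIF4B at chr5:155013746-155013775, KIF23 at chr15:69414282-69414311 and KIF20A at chr5:138179059-138179088 are read on the plus strand. In KIF15 the element is followed directly by the E2F site TTTGGCGC, the only match to that site among the members, against 0.652% of all promoters. KIF4A and its copy KIF4B carry the same letters from the element to the end of the window. The windows of KIFC1, KIF23 and KIF20A belong to genes that did not fall with the main scaling.

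Genes with the element near the start site did not all fall with the main scaling. Of the 12 mitotic genes with such a match 8 fell, 2 rose and 2 did not pass. KIF22, with the largest fall apart from KIF4B, had no match near the start site. The 2 rises, of KIF23 and KIF20A, were small and turned with other scalings, as given above. With total counts only, 13 mitotic motors were called lower, all that were tested. CCAAT boxes were in 73.3% of mitotic, 29.4% of transport and 34.6% of all promoters, and 66.7% of mitotic promoters held a box as well as the element near the start site, against 4.49% of all promoters. The repeat GGAAGGAA, which EWS-FLI1 is known to bind where it is repeated, was in 0 of the 47 member promoters and in 3.67% of all promoters. E2F sites spelled TTTCCCGC occurred in 0 mitotic promoters and in 1.63% of all promoters. A match is a string of letters and no measure of binding, and no match says only that these letters are not in this window.

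**Figure D3:**
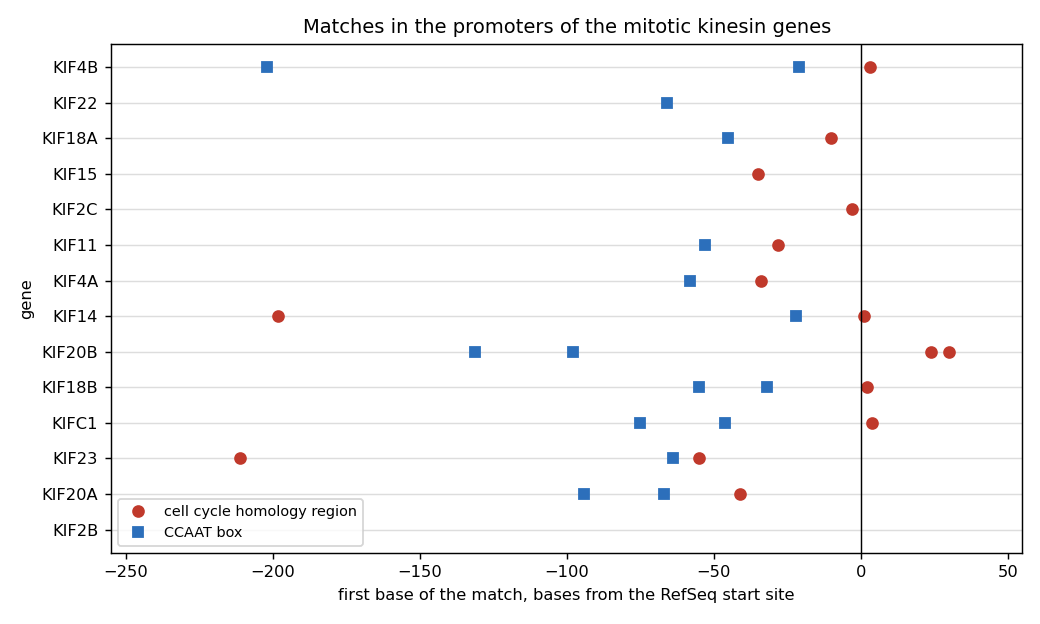
Position of matches in the promoters of the 14 mitotic genes, in bases from the RefSeq start site (0), for the cell cycle homology region (TTTGAA or TTTAAA, circles) and the CCAAT box (squares). Each of 12 genes has at least 1 circle within 100 bases before to 50 bases after the start site, mostly with a square further upstream, and KIF14 and KIF23 have another circle at -198 and -211, whereas KIF22 has a square alone and KIF2B neither.

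Partners of the mitotic motors and genes of cycling cells were lower as well. By comparison, 37.5% of all tested genes were called lower and 36.3% higher. Of 23 mitotic partners 20 fell, 2 rose and 1 did not pass (median log2 fold change -0.59). HMMR, a spindle protein, averaged 18.9 ± 0.779 CPM in knockout and 79.6 ± 5.77 CPM in parental libraries (SD, n = 3 each), a log2 fold change of -2.08, and INCENP, the scaffold of the chromosomal passenger complex, and NUF2, a kinetochore protein, fell by 1.38 and 1.31 on the log2 scale. The 2 that rose, named here after their values were seen, were the cytokinesis proteins ANLN (0.80) and CEP55 (0.59). Of 11 markers of cycling cells 10 fell and none rose (median -0.69), among them the replication helicase subunits MCM7 (-1.43) and MCM2 (-1.23) and the topoisomerase TOP2A (-1.37). Their summed level lay between 1835 and 2010.3 CPM in knockout and between 3364 and 3391 CPM in parental libraries. The part of these cycling genes in the falls of the mitotic motors was not tested. Of 18 regulators of mitotic transcription 11 fell and 4 rose (median -0.26), and E2F2, LIN9 and E2F5 had log2 fold changes of -1.95, -0.95 and -0.79.

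Among the transport motors, KIF1A carried the largest change. KIF1A moves synaptic vesicle precursors and dense-core vesicles along axons and lies at chr2:240713761-240821036 on the minus strand. Its level was 17.9, 16.7 and 16.3 CPM in the knockout libraries and 923, 856 and 905 CPM in the parental libraries. The level in parental cells was thus 52.8-fold higher, a log2 fold change of -5.72 (edgeR adjusted p = 4.01e-26, SE 0.062). KIF1A made up 1.15%, 1.11% and 1.13% of the summed CPM of the 17 transport motors in knockout and 46.9%, 45.2% and 46.4% in parental libraries. That sum was 1558, 1506 and 1441 CPM in knockout and 1969, 1893 and 1949.5 CPM in parental libraries, whereas without KIF1A it was 1540.2, 1489 and 1425 CPM in knockout and 1046, 1037 and 1045 CPM in parental libraries. With KIF1A the summed transport level was thus lower in knockout than in parental libraries, and without it higher. The summed mitotic level was 865, 861 and 817 CPM in knockout and 1206, 1236 and 1222 CPM in parental libraries.

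KIF21B, KIF5A and KIF5C fell as well. Motors were not listed by their place in neurons, so these are examples. KIF1B, also a carrier of synaptic vesicles, did not pass (0.02). KIF17 (0.03) and KIFC2 (0.21) did not pass either, and KIF3C rose by 0.62. The examples therefore do not show a fall of neuronal motors as a group. KIF21B, a motor that pauses microtubule growth, held 0.806, 0.772 and 0.769 CPM in knockout and 7.42, 6.87 and 7.46 CPM in parental libraries. KIF5A, the neuronal kinesin-1 heavy chain, held 3.33, 3.92 and 4.11 CPM in knockout and 12.1, 12 and 13.2 CPM in parental libraries. Both lay well below the parental range in every knockout library, with log2 fold changes of -3.21 (edgeR adjusted p = 1.35e-18, SE 0.091) for KIF21B and -1.72 (edgeR adjusted p = 1.09e-14, SE 0.077) for KIF5A. KIF5C, another neuronal heavy chain, averaged 1.67 ± 0.0629 CPM in knockout and 2.4 ± 0.0303 CPM in parental libraries (SD, n = 3 each) and fell by 0.53 on the log2 scale, and KIF16B, which moves early endosomes, fell by 0.28. Of 7 neuronal markers 6 were tested, of which 3 fell, 1 rose and 2 did not pass, and their summed level was 61.7 to 66.6 CPM in knockout and 115 to 123 CPM in parental libraries. ELAVL3 averaged 0.134 CPM in knockout and 9.16 CPM in parental libraries (log2 fold change -6.10), STMN2, at a low level, had a log2 fold change of -4.85, and SYT1 averaged 36.3 CPM in knockout and 106 CPM in parental libraries (-1.54). SNAP25 averaged 27.1 CPM in knockout and 3.87 CPM in parental libraries (2.81), and RBFOX3, DCX and ELAVL4 were under 1 CPM in all 6 libraries. The part of these neuronal genes in the falls of KIF1A, KIF21B, KIF5A and KIF5C was not tested.

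The largest rises among transport motors were those of KIF21A, KIF13A and KIF13B. KIF21A, a relative of KIF21B that acts on microtubule ends at the cortex, held 12.3, 11.9 and 11.4 CPM in knockout and 3.13, 3.30 and 3.02 CPM in parental libraries. KIF13A, which carries recycling endosomes and the mannose-6-phosphate receptor, held 123, 108 and 108 CPM in knockout and 37.2, 38.0 and 38.4 CPM in parental libraries. KIF13B, a motor that binds the polarity protein DLG1, held 83.6, 75 and 73.3 CPM in knockout and 28.1, 27.9 and 27.3 CPM in parental libraries. All 3 genes were higher in every knockout library, with log2 fold changes of 1.92 (edgeR adjusted p = 9.23e-17, SE 0.069) for KIF21A, 1.57 (edgeR adjusted p = 5.81e-17, SE 0.055) for KIF13A and 1.48 (edgeR adjusted p = 1.56e-16, SE 0.054) for KIF13B. KIF1C, which carries dense-core vesicles and integrins, rose by 0.85 to 319 ± 10.1 CPM in knockout, against 177 ± 6.49 CPM in parental libraries (SD, n = 3 each). KIFC3, a minus-end directed motor of cell junctions, rose by 0.58. All 7 risen transport motors were also called higher with DESeq2 size factors, upper quartile factors and total counts only.

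The subunits of kinesin-2, the motor of anterograde transport in cilia, moved apart. KIF3A held 15.5, 14.8 and 14.2 CPM in knockout and 29, 33.4 and 32.0 CPM in parental libraries. Its dimer partner KIF3B held 132, 122 and 115 CPM in knockout and 66.0, 66.3 and 68.6 CPM in parental libraries. KIFAP3, the non-motor subunit of the same complex, held 30.1, 29.4 and 28.2 CPM in knockout and 14.5, 14.9 and 14.3 CPM in parental libraries. KIF3A thus fell (log2 fold change -1.09, edgeR adjusted p = 2.11e-13, SE 0.059) while KIF3B rose (0.87, edgeR adjusted p = 1.38e-12, SE 0.053) and KIFAP3 rose (1.01, edgeR adjusted p = 7.71e-14, SE 0.052), each without overlap between the genotypes. KIF3C, which pairs with KIF3A as well, rose by 0.62. KIF17, a homodimeric kinesin-2, averaged 0.805 ± 0.0901 CPM in knockout and 0.788 ± 0.149 CPM in parental libraries (SD, n = 3 each) and did not pass, except as lower with total counts only (-0.39). Among 19 genes of intraflagellar transport, the cargo trains of that motor, 13 fell (68.4%) and 2 rose (10.5%), with a median of -0.29. Shares over all tested genes were 37.5% lower and 36.3% higher. TTC21B (-2.29), IFT27 (-0.85) and WDR35 (-0.82) led the falls.

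Of the abundant transport motors, KIF5B, KIF1B and KIFC2 did not pass. KIF5B, which carries mitochondria, vesicles and lysosomes in most cells, averaged 291 ± 15.8 CPM in knockout and 271 ± 9.0 CPM in parental libraries (SD, n = 3 each). Its log2 fold change of 0.10 did not pass (edgeR adjusted p = 0.0746), but passed as higher with DESeq2 size factors (0.13), without knockout replicate 3 (0.16), without parental replicate 1 (0.10) and without parental replicate 2 (0.14), and as lower with total counts only (-0.32). KIF1B, a carrier of mitochondria and synaptic vesicles, averaged 131 ± 14.8 CPM in knockout and 129 ± 3.46 CPM in parental libraries (SD, n = 3 each). Its log2 fold change was 0.02, and it was called lower with total counts only (-0.41) and with upper quartile factors (-0.18). KIFC2 held 35.4, 50.5 and 55.3 CPM in knockout and 44.4, 37.5 and 40.2 CPM in parental libraries. The knockout libraries of KIFC2 were thus spread on both sides of the parental range, and its log2 fold change of 0.21 (edgeR adjusted p = 0.392) became 0.39 (edgeR adjusted p = 3.20e-08) without knockout replicate 1. FOXH1 on the opposite strand overlaps 21.7% of the exon bases of KIFC2, and strand was not stated.

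Light chains, which link kinesin-1 to its cargo, shifted between paralogues. KLC1 held 135, 141 and 137 CPM in knockout and 92.4, 89.2 and 90.4 CPM in parental libraries. KLC2 held 62.3, 67.2 and 66.7 CPM in knockout and 104, 90.7 and 94.3 CPM in parental libraries. KLC1 was thus higher (log2 fold change 0.60, edgeR adjusted p = 9.86e-11, SE 0.047) and KLC2 lower (-0.56, edgeR adjusted p = 5.65e-09, SE 0.055) in every knockout library, although 39.5% of the 31-base words of KLC1 occur in transcripts of other genes, 27.9% in those of XRCC3. KLC3, at a mean of 0.348 CPM over the 6 libraries, had a log2 fold change of -1.81 and shares 28.0% of its exon bases with ERCC2 on the opposite strand. KLC4 rose by 0.26 and was called lower, at -0.16, with total counts only. KIFBP, which binds several kinesins and keeps them off microtubules, rose by 0.54. In all, 4 of 6 accessory members rose (66.7%) and 2 fell (33.3%), against 36.3% and 37.5% of all tested genes.

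Of the 11 other members, many of which act in cilia, 8 fell (72.7%), 1 rose (9.09%) and 2 did not pass. Their median was -1.16. Among all tested genes 37.5% were called lower and 36.3% higher. The 2 KIF26 proteins, atypical kinesins that bind microtubules without walking, changed places. KIF26B, a protein of WNT5A signalling and cell polarity at chr1:245154985-245709431 on the plus strand, held 127, 107 and 105 CPM in knockout and 0.657, 0.519 and 0.559 CPM in parental libraries. KIF26A, known from growth of enteric neurons in mice and located at chr14:104138723-104180894 on the plus strand, held 1.33, 1.06 and 1.44 CPM in knockout and 145, 122 and 129.8 CPM in parental libraries. KIF26B was thus 195-fold higher in knockout cells (log2 fold change 7.61, edgeR adjusted p = 5.37e-15, SE 0.11) and KIF26A was 103-fold higher in parental cells (-6.69, edgeR adjusted p = 3.75e-12, SE 0.12). The lower level of each was a small share of the raw counts of the other genotype, 0.752% for KIF26B and 0.663% for KIF26A. Among abundant genes of these libraries the 20 lowest such shares had medians of 0.586% and 0.617%, so the low levels of both genes lie near the smallest that any abundant gene reached. KIF1A, at 1.29%, lay above them. The part of such a share in the low levels of KIF26A, KIF26B and KIF1A was not tested, and the SD and SE do not cover it.

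**Figure D4:**
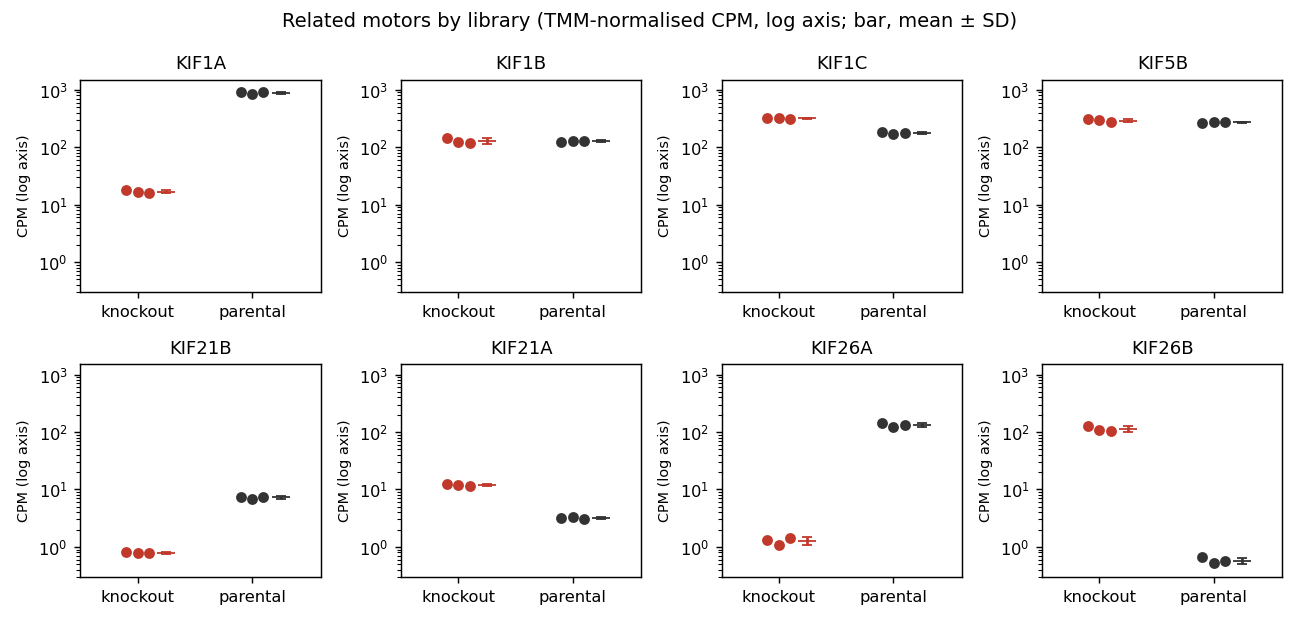
TMM-normalised CPM of 8 related motors in each library, on a common log axis, with the mean and SD of 3 libraries beside the points. KIF1A, KIF21B and KIF26A lie far lower and KIF21A and KIF26B far higher in knockout than in parental libraries, KIF1C is moderately higher, and KIF1B and KIF5B overlap.

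The remaining members of this group were low or moderate in level. KIF6, needed in mice for the cilia of the ependyma, held 0.528, 0.535 and 0.492 CPM in knockout and 1.54, 1.64 and 1.70 CPM in parental libraries. KIF27, a relative of the Hedgehog pathway kinesin KIF7, held 2.71, 2.93 and 2.51 CPM in knockout and 7.68, 8.91 and 8.47 CPM in parental libraries. Both were lower in all knockout libraries, with log2 fold changes of -1.65 (edgeR adjusted p = 1.49e-10, SE 0.13) for KIF6 and -1.62 (edgeR adjusted p = 6.35e-14, SE 0.083) for KIF27, of which 42.4% of 31-base words occur in transcripts of other genes. KIF2A, a kinesin-13 of spindle poles and of neurite pruning that could have been placed with the mitotic motors, averaged 48.2 ± 2.05 CPM in knockout and 108 ± 5.04 CPM in parental libraries (SD, n = 3 each) and fell by 1.16 on the log2 scale. KIF25, of which 4.28% of 31-base words occur in the more abundant parental transcript KIF25-AS1, averaged 0.188 CPM in knockout and 1.01 CPM in parental libraries (-2.43). KIF19 averaged 0.0576 CPM in knockout and 0.161 CPM in parental libraries (-1.49). KIF9, a protein of motile cilia, and KIF24, which restrains the outgrowth of cilia, fell by 0.50 and 0.30. KIF7 itself had a log2 fold change of 0.01 but was called lower with total counts only (-0.41) and with upper quartile factors (-0.19), and KIF12, at a mean of 0.0798 CPM, one of 0.57, and neither passed with the main scaling.

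Within groups of related motors, the gene with the largest share often differed between the genotypes. Shares were computed from CPM per kilobase of exon, summed over the related genes of a library, so that genes of unequal length can be compared. Among the KIF1 motors, KIF1C took 80.6% ± 1.2 in knockout and 18.2% ± 0.37 in parental libraries, and KIF1A took 3.52% ± 0.063 in knockout and 75.4% ± 0.51 in parental libraries (SD, n = 3 each). The annotated exon span of KIF1B, 16412 bases, is long against 7919 bases for KIF1C and 9651 bases for KIF1A. That length lowers the share of KIF1B, 15.9% in knockout libraries, and raises that of KIF1C. Between the KIF21 motors, KIF21A took 95.8% ± 0.082 in knockout and 39.4% ± 2.1 in parental libraries. KIF26B took 97.7% ± 0.40 of the KIF26 pair in knockout and 0.214% ± 0.0072 in parental libraries. The kinesin-1 heavy chains kept their order, with KIF5B at 98.2% ± 0.21 in knockout and 94.9% ± 0.26 in parental libraries (SD, n = 3 each). KLC2 took 37.2% ± 0.54 of the light chain level in knockout and 52.5% ± 0.71 in parental libraries, with the share of KLC1 kept low by its long annotated exon span of 17581 bases.

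**Figure D5:**
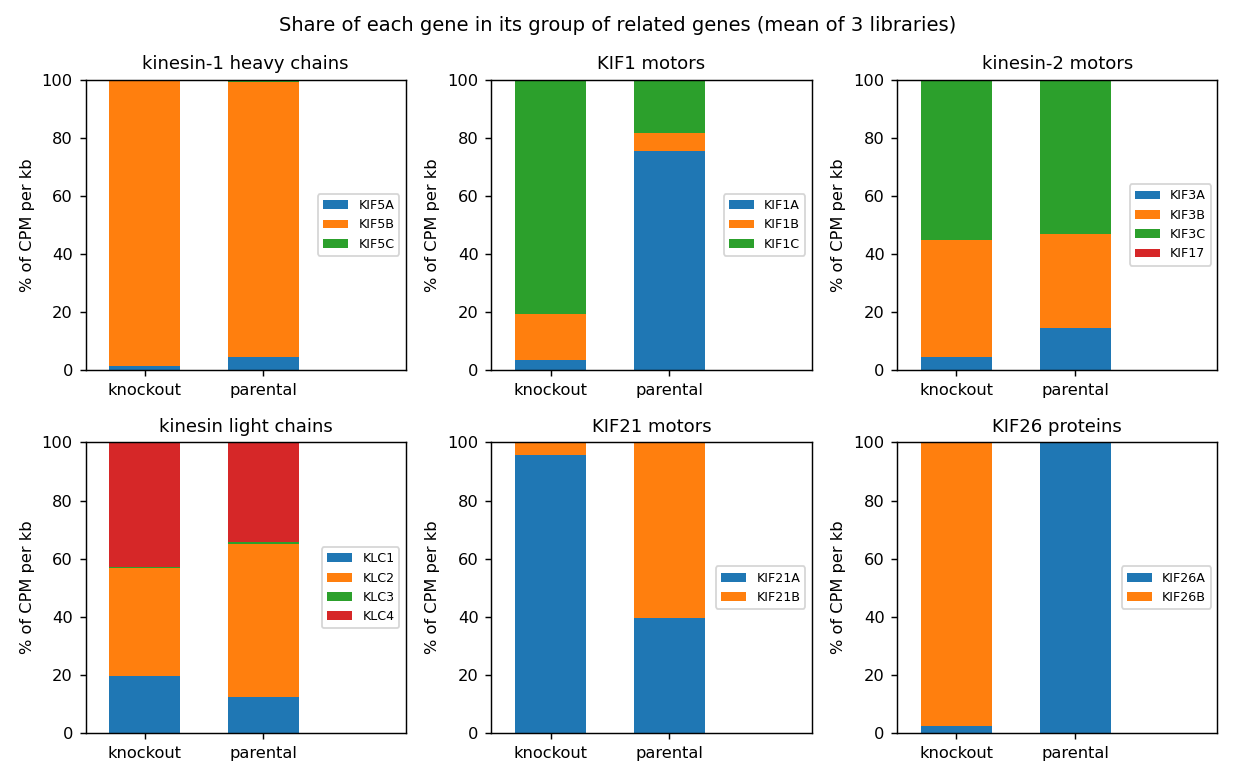
Share of each gene in the CPM per kilobase of exon of its related genes, as means of 3 libraries, in knockout (left bar) and parental cells (right bar). KIF1C, KIF21A and KIF26B take 80.6%, 95.8% and 97.7% of their groups in knockout cells, and KIF5B takes 98.2% in knockout and 94.9% in parental cells.

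Ranked by level per kilobase of exon, the most abundant members also differed. In knockout libraries the order began with KIF5B at 49.6 ± 2.7, KIFC1 at 40.6 ± 0.74, KIF1C at 40.2 ± 1.3 and KIFC3 at 38.6 ± 1.0 CPM per kilobase (SD, n = 3). The ranges of KIFC1 and KIF1C overlapped, so their order is not resolved, whereas KIF5B lay above both and the range of KIFC3 lay below that of KIFC1. In parental libraries it began with KIF1A at 92.7 ± 3.6, KIF22 at 63.0 ± 2.8, KIF5B at 46.2 ± 1.6 and KIF2C at 45.1 ± 0.47 CPM per kilobase (SD, n = 3). KIF1A and KIF22 stood clear of the rest there, and KIF5B and KIF2C could not be ordered. Scaling does not touch this order within a library.

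Lists of the wider transport machinery differed, with the genes of intraflagellar transport mostly lower, as given above, and those of cargo adaptors and of dynein mostly higher in the knockout libraries. Of 24 cargo adaptors and regulators of kinesins 16 rose (66.7%) and 7 fell (29.2%), against 36.3% and 37.5% of all tested genes. The median log2 fold change of these adaptors was 0.56. FEZ1, an adaptor of kinesin-1, rose by 2.12, and PLEKHM1, an adaptor of lysosomes, rose by 1.44, whereas MAPK8IP2, a JNK scaffold of neurons, averaged 4.53 ± 0.143 CPM in knockout and 41.9 ± 2.29 CPM in parental libraries (SD, n = 3 each; -3.21). Of 24 tested genes of dynein and dynactin, the motor of the opposite direction, 18 rose and 2 fell (median 0.35), led by DYNC1I1 (2.29), DYNLT3 (1.61) and DYNLT1 (1.46). Of 15 tubulins, 8 rose and 7 fell, among them TUBA1A (1.92), TUBB2B (-3.0) and TUBB4A (-1.34). The list holds the tubulins of the track and the gamma-tubulins TUBG1 (-0.27) and TUBG2 (1.24). The positive medians of dynein and dynactin (0.35) and of the tubulins (0.19) are smaller in size than the shift of -0.422 that total counts bring to all genes. That downward shift would move the intraflagellar transport median of -0.29 further down. Markers of other cell types were low or mixed: endothelial markers summed to 8.71 to 9.76 CPM in knockout and 1.23 to 1.42 CPM in parental libraries, 2 of 5 rising and 2 falling, and immune markers to 13 to 14.8 CPM in knockout and 5.04 to 6.02 CPM in parental libraries, 3 of 4 tested rising. Epithelial markers summed to 247 to 269.8 CPM in knockout and 7.18 to 8.04 CPM in parental libraries, carried by KRT18 and KRT8, with EPCAM, KRT5 and CDH1 under 1 CPM in all 6 libraries. The part of these markers in the changes of the kinesins was not tested.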

How the data were processed

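RNA of 6 libraries of the A673 line was measured, 3 labelled EWS-FLI1 knockout and 3 parental. Per the labels' protocols, polyadenylated RNA was captured with oligo-dT beads, prepared with the NEBNext Ultra II kit and sequenced on a NovaSeq, and strand is not stated. The authors deposited estimated counts per gene for 62700 rows, made with kallisto 0.48.0 on hg38 per the submitters' processing notes. The summing of transcripts to genes is not given in the sources used here. Because kallisto divides reads that fit several transcripts, near-identical genes are uncertain. Numeric columns with no sample numbered 0.

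Here the estimated counts were rounded and tested with edgeR 4.0.16 in R 4.3.3. filterByExpr (minimum count 10, minimum total count 15) left 28485 genes, scaled by TMM, in a quasi-likelihood fit with genotype as its only term, two-sided, called at an adjusted p of 0.05. The SE is the log2 fold change divided by the square root of F. The fit was run on simulated counts in which few genes changed, so that run does not check the scaling where most genes differ. Counting floors cover counting error only, since reads have no molecular identifiers. Exon lengths come from GENCODE v29 and promoters from RefSeq (GRCh38.p14). Members, role lists and tests were chosen with earlier results of these data known. Values in every library are given for the members of at least 1 CPM on average with the largest log2 fold change (8 mitotic, 8 transport, 3 accessory, 4 other), and up to 3 genes of at least 5 CPM are named from each other list. No 2 libraries of a genotype agreed within sampling noise, with chi-square per degree of freedom from 11.1 to 78.1. Alternatives were other scalings, filters, the DESeq2 1.42.0 Wald test, limma-voom 3.58.1, glmTreat, a replicate term and leaving out each library.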

Additional observations from a re-analysis of the deposited data

How the results depend on the processing

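Of 47 tested members, 37 kept their direction and their side of the threshold under the 14 alternatives other than glmTreat that gave a value for them, and 16 did so with glmTreat included, which tests against a larger change. Tested against a log2 fold change of 1 with glmTreat, 4 members rose (background 18.1%) and 11 fell (15.5%): 2 mitotic motors fell and 0 rose, and 3 transport motors rose and 3 fell. The count of mitotic motors that rose was 0 with total counts only, upper quartile factors, no filter on low counts and the replicate block, 1 with a minimum count of 100, and 0 to 2 when a library was left out. The median of the mitotic motors was -1.21 with total counts only and -0.99 with upper quartile factors, and that of the transport motors was -0.32 with total counts only. The share of rises among all calls was 33.0% with total counts only and 40.5% with upper quartile factors, against 49.1%; no filter on low counts moved the median of all genes by -0.108. Values below 0 in place of positive ones were found with total counts only for KIF23 (-0.32), KIF20A (-0.30), KIF1B (-0.41), KIF17 (-0.39), KIF5B (-0.32), KIFC2 (-0.21), KLC4 (-0.16) and KIF7 (-0.41). The same held with upper quartile factors for KIF23 (-0.10), KIF20A (-0.08), KIF1B (-0.18), KIF17 (-0.17), KIF5B (-0.10) and KIF7 (-0.19). Near 0, KIF1B gave -0.0087 with no filter and -0.0061 with a minimum count of 100, and KIF7 gave -0.01 with each. Leaving out a library gave -0.06 to 0.10 for KIF1B, -0.002 to 0.08 for KIF7 and -0.07 to 0.21 for KIF17 (-0.04 without knockout replicate 3). The scalings differ by construction in how they set the centre of all genes; for the other changes the cause was not tested. Replicate numbers did not pair the libraries, since deviations of same-numbered libraries correlated at -0.255, -0.06 and 0.032, and the replicate block ended the calls of KIF23 and KIF20A among the members. Depth limits KIF2B, KIF12, KIF19, KLC3, KIF17 and KIF4B, with under 1 CPM in every library.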

Other observations

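Antisense and divergent transcripts named after members are outside the symbol rule. KIF25-AS1 averaged 0.111 ± 0.00674 CPM in knockout and 10.6 ± 0.349 CPM in parental libraries (SD, n = 3 each), a log2 fold change of -6.58 (edgeR adjusted p = 6.07e-23, SE 0.11), beside -2.43 for KIF25. KIF26A-DT, the divergent transcript of KIF26A, averaged 0.0114 ± 0.00786 CPM in knockout and 0.992 ± 0.0746 CPM in parental libraries (SD, n = 3 each). Its log2 fold change was -6.40, beside -6.69 for KIF26A. The knockout mean of KIF26A-DT lies at the limit of detection, 0.0109 to 0.0117 CPM in knockout libraries, so that fold is uncertain. The share of raw counts kept, as given for KIF26A and KIF26B, was not computed for KIF25-AS1 or KIF26A-DT. Both have log2 fold changes near that of KIF26A. Whether the same limit holds for them was not tested, and their SD and SE do not cover it.

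KIF23-AS1 averaged 6.80 ± 0.368 CPM in knockout and 0.911 ± 0.0859 CPM in parental libraries (SD, n = 3 each), a log2 fold change of 2.90 (edgeR adjusted p = 2.57e-17, SE 0.097), where KIF23 itself stood at 0.11. KIF9-AS1 averaged 3.92 ± 0.0771 CPM in knockout and 0.971 ± 0.0639 CPM in parental libraries (SD, n = 3 each; 2.01), while KIF9 fell by 0.50. KIF9-AS1 overlaps 13% of the exon bases of KIF9 on the opposite strand, and with no strand stated the reads of such pairs may not be told apart. These 4 transcripts were chosen after their values were seen.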
